A study of Mus musculus with 2 samples.

Results

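Chemokines are small secreted proteins that direct the movement of immune cells, and chemokine receptors are the membrane proteins by which those cells sense them. The genes examined here are all array probes whose transcript accession belongs to a gene named Ccl, Cxcl, Cx3cl, Xcl, Ccr, Cxcr, Cx3cr or Xcr followed by a digit. This rule took 64 of 39429 probes, which stand for 53 of 20886 genes with a probe. They are 34 ligands and 19 receptors. The choice used gene names only and no measured value. The reference annotation lists 63 genes of this naming, and the other 10 (4 Ccl21 genes, Ccl27b and 5 annotated as pseudogenes, Cxcl11 among them) had no probe matched by accession.

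RNA came from liver and from adipose tissue of male wild-type C57BL/6J mice kept on a normal diet or on a high-fat diet for 4 weeks. The submitters pooled RNA of 10 livers and 10 fat samples by diet, and each tissue was hybridised to 1 two-colour Agilent array, on which green (Cy3) carries the normal diet and red (Cy5) the high-fat diet. The sources used here do not give the number of animals behind each pool or the fat depot. With 1 measurement of each pool, the spread from animal to animal is unknown and no p-value is given. Precision is limited by having so few arrays. In place of a p-value, many ratios are given with a scanner error. That error was set by the scanner software for its own log ratio. The ratios here were normalized otherwise, so it is a guide and not their own error. A gene counts as higher or lower once the pools differ by 2-fold or more.

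On the adipose array, markers of several tissues besides fat were above background. All 10 adipocyte markers were above background in both channels there, and their summed log2 level was 19.75 on the normal diet and 19.47 on the high-fat diet, against 12.65 and 12.72 on the liver array. The 14 hepatocyte markers summed to 20.35 and 20.80 on the liver array and to 17.03 and 12.84 on the adipose array. On the adipose array all 19 measured of 20 small intestine epithelium markers were at least 2-fold higher in the high-fat pool (median log2 ratio 3.64, summed level 15.99 and 19.83), while 12 of 14 hepatocyte, 10 of 10 exocrine pancreas and 5 of 5 measured male reproductive tract markers were at least 2-fold lower. On the liver array 7 of 10 skeletal muscle markers were at least 2-fold lower in the high-fat pool. On the adipose array 5 of 9 measured ones were, as were 2 of 5 mesothelium markers. In such bulk RNA, fewer cells of a type and less RNA per cell cannot be told apart.

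Chemokines are classed by the spacing of their first cysteines into CC, CXC, CX3C and XC ligands, and their receptors, which signal through G proteins, are named after the class they bind. One receptor often binds several ligands. In fat, the monocyte attractant Ccl2 and its receptor Ccr2 are known for bringing macrophages into the tissue of obese animals. In the small intestine, epithelial Ccl25 attracts lymphocytes that carry Ccr9. In lymphoid tissue, Ccl19 and Ccl21 position cells with Ccr7, and Cxcl13 positions B cells with Cxcr5.

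Promoter sequences are shown for 3 of the 4 genes with a ratio of at least 2-fold whose start lies in the RefSeq promoter table used here, chosen with their values known. Each is the 250 bases before a start of transcription in build GRCm38.p6, written 5′ to 3′ on the strand of the gene, with any TATAAA on that strand in capitals. Ccl25 has 2 starts in the table, in chr8:4324960-4325209 and chr8:4349338-4349587, and they are shown because its 2 probes, which carry different transcript accessions, gave very different ratios in fat. Ccl8 (chr11:82114935-82115184) and Cxcl13 (chr5:95956689-95956938) are shown as an inflammatory ligand that was higher and a lymphoid ligand that was lower. All 4 windows lie on the plus strand.
Ccl25, first start: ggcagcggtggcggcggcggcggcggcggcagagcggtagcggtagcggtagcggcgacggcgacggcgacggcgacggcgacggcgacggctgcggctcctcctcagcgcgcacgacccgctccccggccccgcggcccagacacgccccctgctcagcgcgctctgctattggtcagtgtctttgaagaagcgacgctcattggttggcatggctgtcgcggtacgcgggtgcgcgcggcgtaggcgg
Ccl25, later start: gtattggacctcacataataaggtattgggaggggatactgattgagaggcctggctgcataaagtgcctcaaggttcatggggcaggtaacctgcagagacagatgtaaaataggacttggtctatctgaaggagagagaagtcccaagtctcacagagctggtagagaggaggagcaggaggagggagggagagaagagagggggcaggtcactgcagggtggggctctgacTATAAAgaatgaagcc
Ccl8: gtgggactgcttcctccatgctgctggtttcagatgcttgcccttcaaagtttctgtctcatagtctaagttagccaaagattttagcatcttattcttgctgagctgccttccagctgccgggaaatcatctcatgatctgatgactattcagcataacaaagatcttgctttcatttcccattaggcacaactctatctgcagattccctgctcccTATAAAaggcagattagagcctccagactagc
Cxcl13: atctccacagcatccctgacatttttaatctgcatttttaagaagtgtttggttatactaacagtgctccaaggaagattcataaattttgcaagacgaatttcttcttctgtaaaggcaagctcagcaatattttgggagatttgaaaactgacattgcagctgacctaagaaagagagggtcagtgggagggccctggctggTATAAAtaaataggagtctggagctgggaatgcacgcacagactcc

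The first Ccl25 window is 74.8% G and C with 45 CG dinucleotides and holds no TATAAA, whereas the later one is 51.6% G and C with no CG and a TATAAA that begins 16 bases before the start. The window of the gene not shown, Cx3cl1, is 64.8% G and C with 14 CG and a TATAAA that begins 6 bases before the start. The TATAAA of Ccl8 begins 32 bases before its start and that of Cxcl13 46 bases before. The table holds 43 windows for 39 of the 53 genes. On either strand, TATAAA occurs in 12 of these 43 windows (27.9%) and in 12.4% of all 32851 windows of that length. The GC box GGGCGG occurs in 7 (16.3%, against 32.7%), the AP-1 motif TGANTCA in 5 (11.6%, against 6.75%) and the NF-kB consensus, read on both strands, in 8 (18.6%, against 3.90%). The 8 windows with the NF-kB letters belong to Ccl9, Ccl20, Ccr3, Ccr6, Cxcl1, Cxcl2, Cxcl3 and Cxcl10. The windows of Ccl8, Ccl25, Cx3cl1 and Cxcl13 do not hold them, which says only that these letters are missing from 250 bases. A match is a description of the letters and not of binding.

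On the liver array 27 of the 53 genes (50.9%) were well above background in both channels, against 65.3% of all genes, and on the adipose array 33 (62.3%, against 68.5%). Levels are log2 normalized intensities, put on 1 scale for the 2 arrays, and can be compared for the same gene between pools but not between genes. In both tissues 26 genes gave a ratio. In neither channel of either array were 14 genes above background: Ccl1, Ccl20, Ccl22, Ccl26, Cxcl2, Cxcl3, Cxcl5, Cxcl15, Cxcl17, Ccr1, Ccr1l1, Ccr4, Cxcr2 and Xcr1. Of the 5 family ligands classed here as attracting neutrophils, all but Cxcl1 are among them. Ccl7, Ccl8, Ccl11 and Ccl12 were above background in both channels of the adipose array and in neither channel of the liver array. For the 14 genes and for this last group, the matching shares of all genes were not counted.

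**Figure D1:**
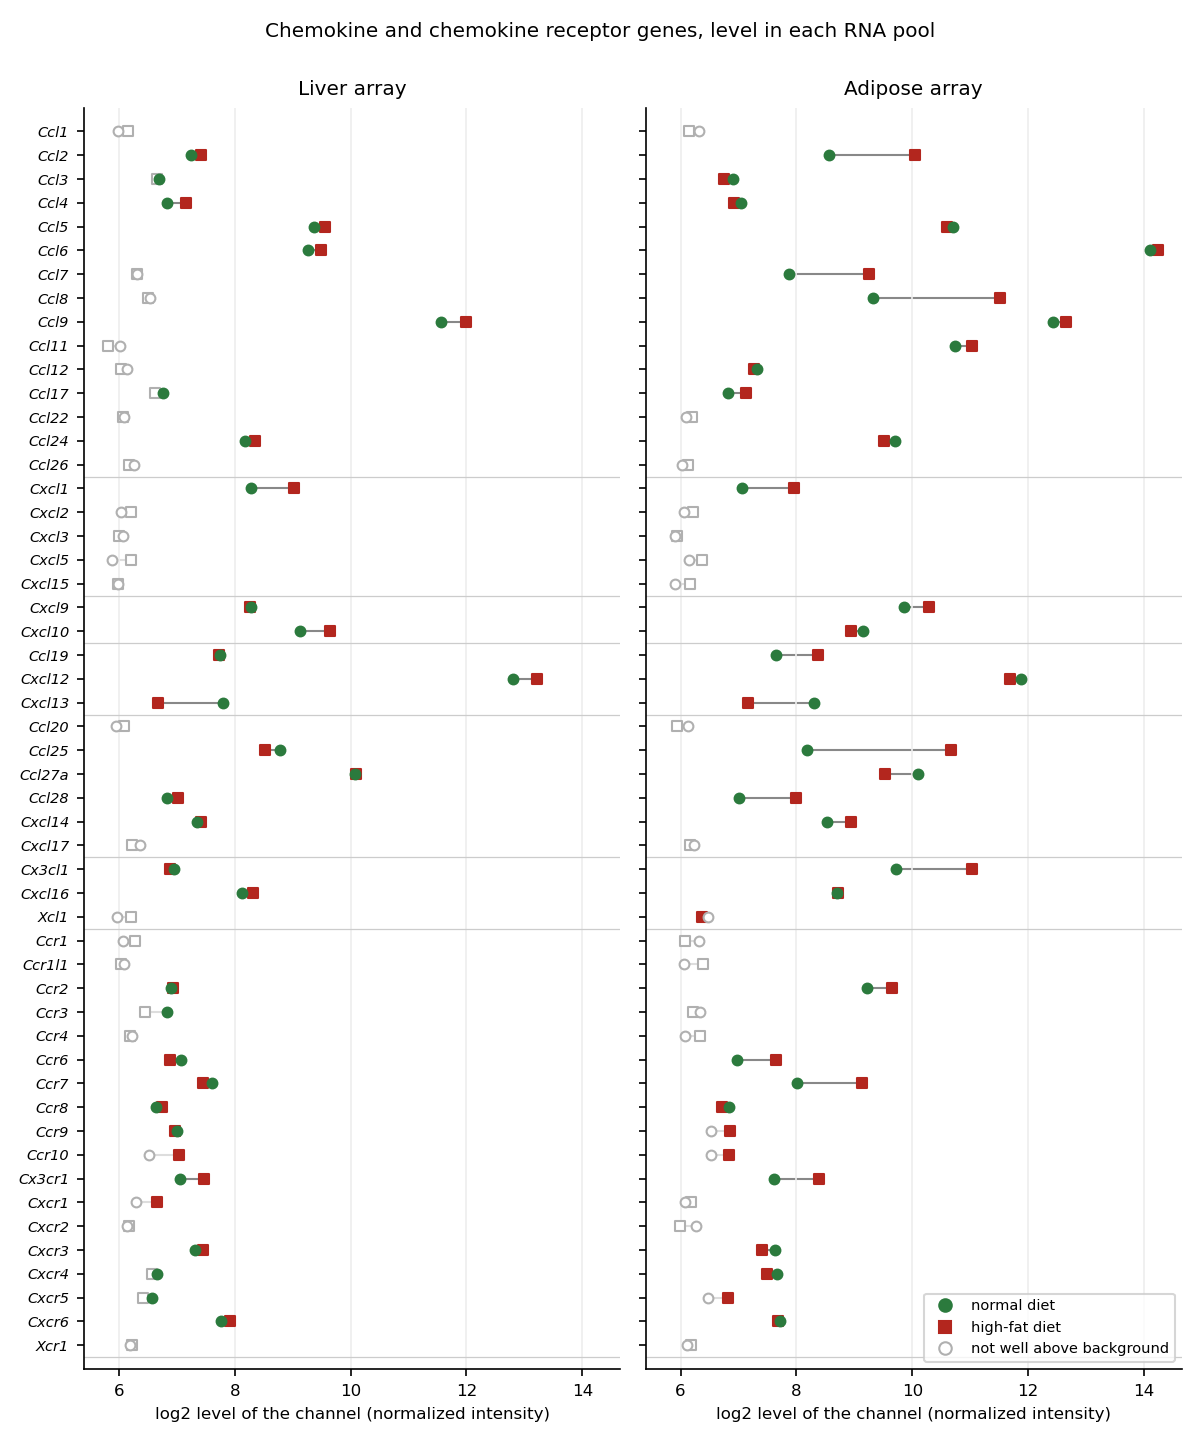
Log2 level (normalized intensity) of 52 genes of the family in the normal-diet pool (green circles) and the high-fat pool (red squares) on the liver array (left) and the adipose array (right); open grey symbols are not well above background, and lines split, from the top, inflammatory CC ligands, neutrophil-attracting CXC ligands, interferon-induced CXC ligands, lymphoid ligands, epithelial ligands, transmembrane and XC ligands, and receptors. The widest gaps between diets are those of Ccl25 and Ccl8 in adipose tissue, and Cxcl13 is the gene whose high-fat level lies farthest below its normal-diet level in either tissue.

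The comparison of diets in adipose tissue found 6 of 33 genes (18.2%) at least 2-fold higher in the high-fat pool, where 4.23% of all 14315 genes were. These were the inflammatory CC ligands Ccl2, Ccl7 and Ccl8, the gut chemokine Ccl25, the transmembrane ligand Cx3cl1 and the receptor Ccr7. Cxcl13 was the only gene at least 2-fold lower (3.03%, against 5.13% of all genes). The median log2 ratio of the 33 genes was 0.30, that of all genes -0.01, and 20 of the 33 lay above 0. With the software's own log ratio 12 genes were at least 2-fold higher, when 6.29% of all genes were. With median centring 16 were, when 29.4% of all genes were. Ccl6, Ccl9, Ccl11, Ccr2, Cxcl9 and Cxcl14 passed 2-fold with median centring alone.

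Among the inflammatory CC ligands, Ccl8 had log2 levels of 9.31 in the normal-diet and 11.52 in the high-fat adipose pool. Its ratio was 2.20 with a scanner error of 0.30, or 4.61-fold, and it ranked 179th highest among the 14315 genes. In liver both channels were near background, at 6.54 and 6.51. Ccr8, paired here with Ccl8 as its receptor, did not show a comparable gap. It was at 6.84 and 6.72 in adipose tissue (ratio -0.12, error 0.30) and at 6.64 and 6.75 in liver (ratio 0.11, error 0.34).

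Ccl2, the main attractant of monocytes, stood at 8.57 and 10.04 in adipose tissue and at 7.24 and 7.42 in liver. Its adipose ratio was 1.47 (2.77-fold, error 0.08), while its liver ratio was 0.17. Ccl2 is the only gene of the family whose probe is printed on 10 spots of each array. The 10 spots gave adipose ratios from 1.34 to 1.61 with an SD of 0.09 and liver ratios from -0.04 to 0.41 with an SD of 0.11, so the spots of the 2 tissues do not overlap. These spots share the RNA, the dyes and the slide, and their SD holds no difference between animals.

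Ccl7, a close relative of Ccl2, had adipose levels of 7.87 and 9.25, a ratio of 1.38 (2.61-fold, error 0.26), and was at 6.32 and 6.30, not above background, in liver. Ccr2, the receptor of Ccl2, Ccl7 and Ccl12, did not reach 2-fold. It was at 9.22 and 9.64 in adipose tissue (ratio 0.42, error 0.21) and at 6.90 and 6.94 in liver. Of its ligands, Ccl12 did not pass 2-fold, with adipose levels of 7.32 and 7.27.

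The 3 ligands that were higher are neighbours in the genome, but the cluster did not move as a block. In chromosome 11 order it holds Ccl2, Ccl7, Ccl11, Ccl12, Ccl8 and Ccl1. Ccl11, the eotaxin that attracts eosinophils, lies between Ccl7 and Ccl8 and had adipose levels of 10.73 and 11.04 (ratio 0.30, error 0.21). Ccl12 beside it had a ratio of -0.05, and Ccl1 was not well above background. The second cluster of chromosome 11 (Ccl5, Ccl9, Ccl6, Ccl3 and Ccl4) had adipose ratios between -0.14 and 0.23.

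**Figure D2:**
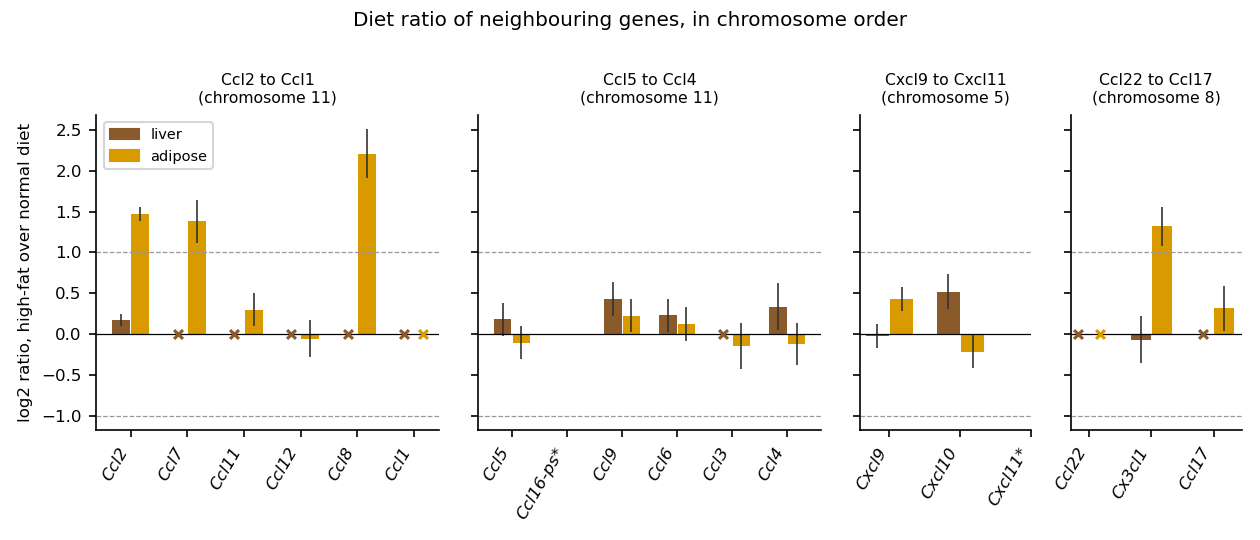
Log2 ratio of the high-fat over the normal-diet pool for neighbouring genes in chromosome order, with liver in brown, adipose tissue in yellow, bars for the ratio and lines for ± the scanner error; a cross marks a gene not above background in both channels, a star a gene without a matched probe, and dashed lines 2-fold. In the first cluster the adipose bars of Ccl2, Ccl7 and Ccl8 reach 1.47, 1.38 and 2.20, while Ccl11 and Ccl12 between them stay at 0.30 and -0.05.

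The other inflammatory CC ligands differed little between the diets in fat. Ccl6, a myeloid chemokine, was at 14.11 and 14.23, Ccl9, which also binds Ccr1, at 12.43 and 12.66, and the T cell attractant Ccl5 at 10.69 and 10.59. Ccl24, another eotaxin, had a ratio of -0.19, Ccl17, a ligand of Ccr4, 0.32, and the macrophage inflammatory proteins Ccl3 and Ccl4 -0.14 and -0.12. In all, 3 of the 12 measured inflammatory CC ligands were at least 2-fold higher (against 4.23% of all genes) and none lower (against 5.13%). Their median was 0.18.

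Macrophage markers differed little on the same array. Of 15 in the list, 14 were measured, none passed 2-fold, the median ratio was 0.14 (from -0.67 for Cd14 to 0.84 for Itgax), and the summed level was 14.17 on the normal and 14.21 on the high-fat diet. The 8 measured neutrophil markers had a median of -0.11 with 3 above 0, from -0.99 for Ltf to 1.51 for S100a8, which alone passed 2-fold.

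Ccl25, the chemokine of the small intestine and thymus, has 2 probes with opposite pictures in fat. The probe of its coding transcript had adipose levels of 9.69 and 14.78 (median spot signals of 334.5 and 63598.5), a ratio of 5.08 with an error of 0.54. The probe of its non-coding transcript stayed dim, at 6.68 and 6.58, a ratio of -0.11. Their mean, 2.49, is the value of the gene in the counts above. In liver the same probes were at 10.52 and 10.08 (ratio -0.43, error 0.21) and at 7.06 and 6.98 (ratio -0.09).

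The receptor of Ccl25, Ccr9, did not show a comparable gap. Its adipose level was 6.53, not above background, in the normal-diet pool and 6.85, just above it, in the high-fat pool. The bound of 1.25-fold is the plain ratio of these levels (log2 0.32, scanner error 0.43) and no lower limit. In liver Ccr9 was at 7.004 and 6.97. Small intestine epithelium markers moved with Ccl25 on this array, with Fabp2 at 6.42, Sis at 5.76 and Vil1 at 4.75, and their part in the Ccl25 ratio was not tested. T and NK cell markers had a median of 0.30 over 10 measured members, with Gzma (1.17) past 2-fold.

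Other ligands of epithelia and barriers differed less. Ccl28, a mucosal ligand that attracts IgA plasma cells through Ccr10, was at 7.001 and 7.99 in adipose tissue, a ratio of 0.99 (error 0.29) just below 2-fold, and at 6.83 and 7.02 in liver. The adipose ratio of Ccl28 passed 2-fold with the software's log ratio (2.02), an offset of 10 (1.39) and median centring (1.30). Ccr10 was above background in the high-fat channel only, in liver (bound 1.42-fold) and in adipose tissue (bound 1.25-fold). In that channel alone were 2 genes of the family in liver (Ccr10 and Cxcr1, where 2.02% of all genes were) and 4 in adipose tissue (Ccr10, Ccr9, Cxcr5 and Xcl1, where 8.06% were), none with a bound of 2-fold. Of all genes in that state, 4.1% in adipose tissue and 10.7% in liver had such a bound. In the normal-diet channel alone were 5 in liver (Ccl3, Ccl17, Ccr3, Cxcr4 and Cxcr5, against 1.68% of all genes) and 0 in adipose tissue (against 1.31%). Among 4 measured plasma cell markers of fat, Jchain was at 1.91 and the median was 0.63. Cxcl14, a ligand made by many epithelia and by fat, had levels of 8.52 and 8.94.

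Ccl27a, a skin chemokine that also binds Ccr10, has 3 probes that disagree in fat. Those probes had ratios of 0.17, 0.24 and -2.14, and the last fell from a level of 9.69 to one of 7.55 while it stayed near 0 in liver (0.05). The gene mean of -0.57 in adipose tissue describes none of the 3. Ccl27b and the Ccl19 pseudogenes are near copies of genes on the array, and whether their transcripts reach these probes is not known.

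Cx3cl1, a chemokine that is made as a membrane protein and tethers cells with Cx3cr1, had adipose levels of 9.71 and 11.03 and liver levels of 6.96 and 6.89. Its adipose ratio was 1.32 (2.50-fold, error 0.24) and its liver ratio -0.07. Cx3cr1, its receptor on monocytes and resident macrophages, was measured by 2 of its 3 probes and was higher in the high-fat pool by less than 2-fold in both tissues. The levels were 7.61 and 8.38 in adipose tissue (ratio 0.78, error 0.17) and 7.06 and 7.47 in liver (0.41, error 0.19). With the software's log ratio Cx3cr1 passed 2-fold in both, at 1.17 and 1.12, and with median centring in adipose tissue (1.30). Cxcl16, the other transmembrane ligand, and its receptor Cxcr6 lay close to 0 in fat, at 0.01 and -0.03. Xcl1 was above background in the high-fat adipose pool alone, with no fold given because its bound was under 1.

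Of the lymphoid tissue genes, Ccr7, the receptor that leads T cells and dendritic cells into lymph nodes, was at 8.01 and 9.14 in adipose tissue and at 7.61 and 7.45 in liver. The adipose ratio was 1.13 (2.19-fold, error 0.25). Its ligand Ccl19 had a mean ratio of 0.73, with single probes at 1.16, 0.44 and 0.60 that all point the same way. The mean of Ccl19 passed 2-fold with the software's log ratio (1.05) and median centring (1.22). In liver the 3 probes lay between -0.13 and 0.20. Ccr6, a receptor of B cells and of T helper cells, had a ratio of 0.68 in fat (1.30 with the software's log ratio), while its ligand Ccl20 was not well above background in any pool.

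Markers of lymphocytes and dendritic cells lay mostly above 0 on the adipose array, and their part in the Ccr7 ratio was not tested. The 6 measured of 10 B cell markers had a median of 0.60, with Ms4a1 at 0.74 and none past 2-fold, and their summed level was 12.26 and 12.40. The 5 measured of 6 dendritic cell markers had a median of 0.23, with a summed level of 12.02 and 12.28. That of the T and NK cell list was 11.79 and 12.07. Of the 4 lymph node markers, Madcam1 and Chst4 were measured, at 0.30 and -0.03.

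**Figure D3:**
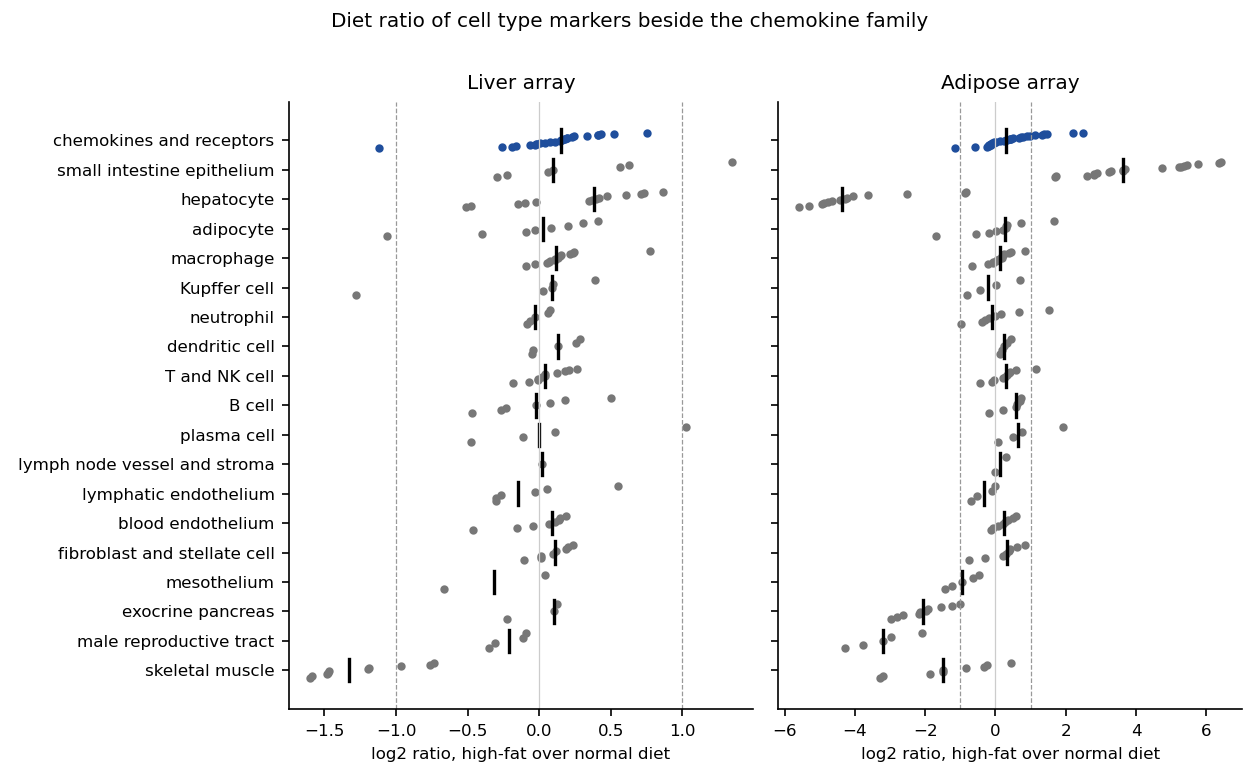
Log2 ratio of the high-fat over the normal-diet pool for each measured gene (dots) of the chemokine family (blue) and of 18 lists of cell type markers (grey) on the liver array (left) and the adipose array (right), with black bars for the list median and dashed lines for 2-fold; the axes of the panels differ. On the adipose array small intestine markers lie around a median of 3.64 and hepatocyte markers around -4.36, while macrophage markers centre on 0.14 and B cell markers on 0.60.

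Cxcl13, which draws B cells into follicles, was lower in the high-fat pool in both tissues. The levels were 7.80 and 6.68 in liver and 8.31 and 7.17 in adipose tissue. The ratios were -1.12 (error 0.31) and -1.14 (error 0.26), the 57th lowest of 13642 genes in liver and the 626th lowest of 14315 in adipose tissue. In liver its spot had a green signal of 145 over a local background of 25, and a red signal of 86.5 over one of 51. With local backgrounds as deposited the liver ratio was -0.08, and with median centring the adipose ratio was -0.72. Its receptor Cxcr5 was above background only in the normal-diet channel of liver (bound 1.11-fold). In adipose tissue Cxcr5 was above background only in the high-fat channel (bound 1.27-fold). B cell markers in liver had a median of -0.02 over 7 measured members, none past 2-fold.

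In liver no gene of the family was at least 2-fold higher (0 of 27, where 0.491% of all 13642 genes were), and Cxcl13 alone was at least 2-fold lower (3.70%, against 0.579% of all genes). The median ratio was 0.15, against 0.01 over all genes, and 19 of 27 lay above 0. Relative to all genes this sign turned with median centring, where the family had a median of 0.22 and all genes 0.32. The family median was 0.01 with local backgrounds as deposited and 0.04 over all 53 genes without a filter on dim probes. Of the 27 ratios, 7 exceeded 2 times their scanner error, as did those of 1377 of all 13642 genes.

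The highest liver ratio was that of Cxcl1, which attracts neutrophils through Cxcr2. It was at 8.28 and 9.03 in liver (ratio 0.75, error 0.22) and at 7.06 and 7.95 in adipose tissue (ratio 0.89, error 0.27), below 2-fold in both. With median centring both passed 2-fold, at 1.06 in liver and 1.20 in adipose tissue, as did the adipose ratio by the scanner software (1.71) or at an offset of 10 (1.23). Cxcr2 was not above background in any pool, and the other family ligands classed here as attracting neutrophils were not either. Neutrophil markers in liver had a median of -0.03 over 5 measured members.

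Cxcl10, an interferon-induced ligand of Cxcr3, followed in liver at 9.13 and 9.65 (ratio 0.52, error 0.21). In adipose tissue it was at 9.14 and 8.93, a ratio of -0.21 (error 0.21). Cxcl9, which shares the receptor and lies next to it on chromosome 5, had a liver ratio of -0.02 (error 0.15). Its adipose levels were 9.86 and 10.29 (ratio 0.43, error 0.15). Cxcr3 had ratios of 0.15 and -0.24. None of these passed 2-fold.

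Cxcl12, the ligand of Cxcr4 that holds blood-forming and lymphoid cells in their niches, had mean levels of 12.81 and 13.22 in liver and of 11.88 and 11.68 in adipose tissue. Its 2 probes gave liver ratios of 0.52 and 0.30 and adipose ratios of -0.19 and -0.20. Ccl9 was at 11.56 and 11.99 in liver (0.43, error 0.21). The macrophage list had a liver median of 0.12 over 14 members, none past 2-fold, and a summed level of 12.98 and 13.15. The 5 Kupffer cell markers had a median of 0.09 with 4 above 0, and Marco (-1.28) was at least 2-fold lower.

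**Figure D4:**
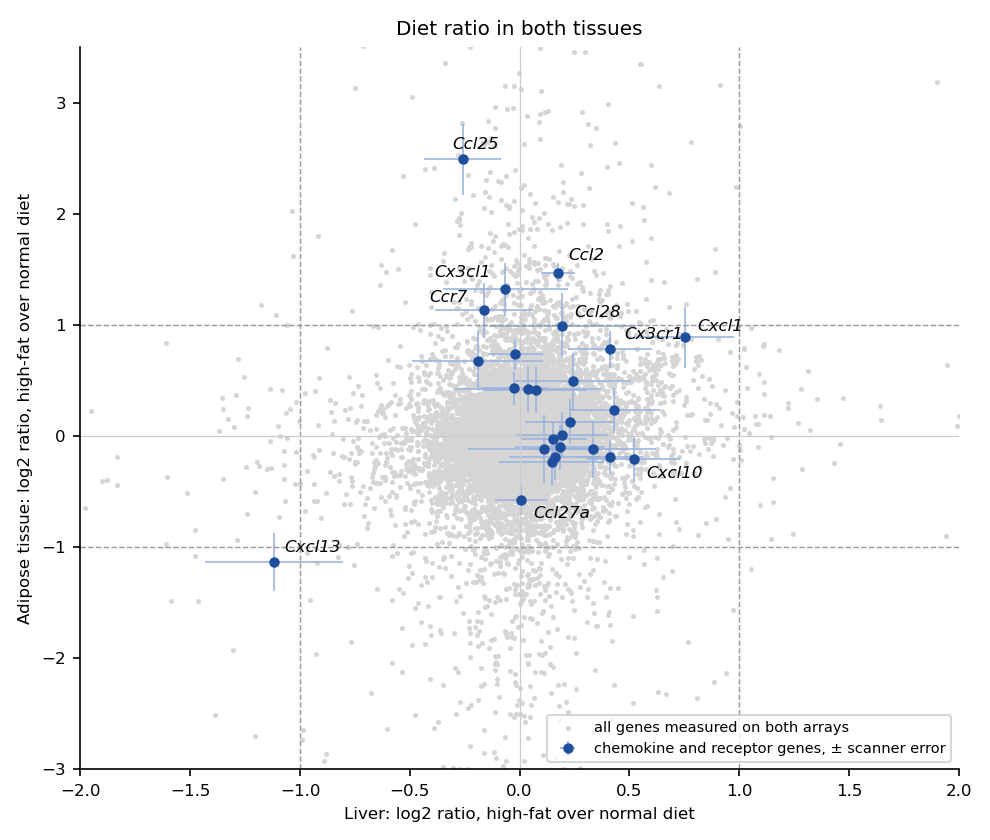
Log2 ratio of the high-fat over the normal-diet pool in liver (horizontal) against adipose tissue (vertical) for the 26 family genes measured on both arrays (blue, ± scanner error) and all 12689 genes measured on both (grey, 126 of them outside the axes); dashed lines mark 2-fold. Cxcl13 is the only blue point beyond 2-fold on both axes, at -1.12 and -1.14, and Ccl25, at 2.49 in adipose tissue, lies to the left of 0 in liver.

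Of the 26 genes with a ratio in both tissues, 10 lay above 0 in both, 1 below 0 in both (Cxcl13) and 15 on opposite sides. Of these 15, 12 were within their scanner error of 0 in at least 1 tissue, and the other 3 were Ccl25, Cxcl10 and Cxcl12. The same split was not counted over all genes, so it shows nothing particular to the family. The tissues also differed in the level of the genes themselves. On the normal diet 8 of the 26 (30.8%) were at least 2-fold higher on the adipose than on the liver array, where 18.2% of all 12689 genes were, and 1 was lower, Cxcl1 (-1.22), as were 16.2% of all genes. The largest gaps were those of Ccl6 (4.84), Cx3cl1 (2.76) and Ccr2 (2.32). On the high-fat diet 10 (38.5%, against 18.8%) were higher and 2, Cxcl1 and Cxcl12, lower (against 16% of all genes). The median difference was 0.36 on the normal and 0.71 on the high-fat diet, against -0.05 and -0.08 over all genes. Each tissue has a slide of its own, so slide and tissue cannot be told apart.

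Genes that act with the family were read in 3 lists, beside 4.23% of all genes at least 2-fold higher in fat. Among 11 scavenging receptors and related genes, 1 of 11 measured in fat was at least 2-fold higher, Dpp4 (2.23), a peptidase that trims chemokines. Dpp4 also lines the intestinal brush border. Small intestine markers moved with it in fat, and their part in the Dpp4 ratio was not tested. None of the 9 genes of this list measured in liver passed 2-fold. The decoy receptors Ackr1 and Ackr2 were at 0.18 and 0.49 in fat and at 0.22 and -0.50 in liver. Of 20 genes of chemokine receptor signalling, 18 were measured in fat with 1 at least 2-fold higher, Rgs1 (1.14), a brake on receptor signalling in lymphocytes, and 15 in liver with none. Their medians were 0.24 and 0.01.

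Of 16 cytokines and transcription factors that induce chemokine genes, 10 were measured in fat and 1 was at least 2-fold higher, Tnfaip3 (1.01), a target and inhibitor of NF-kB. Relb was at 0.98, Irf1 at 0.65 and Nfkbia at -0.42. Tnf, Il1b, Il6, Il17a and Lta were above background in the high-fat adipose channel alone, as were 8.06% of all genes on that array against 1.31% in the normal-diet channel alone. In liver 11 were measured and none passed 2-fold, with Irf1 at 0.55 and Nfkbia at -0.66.

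**Figure D5:**
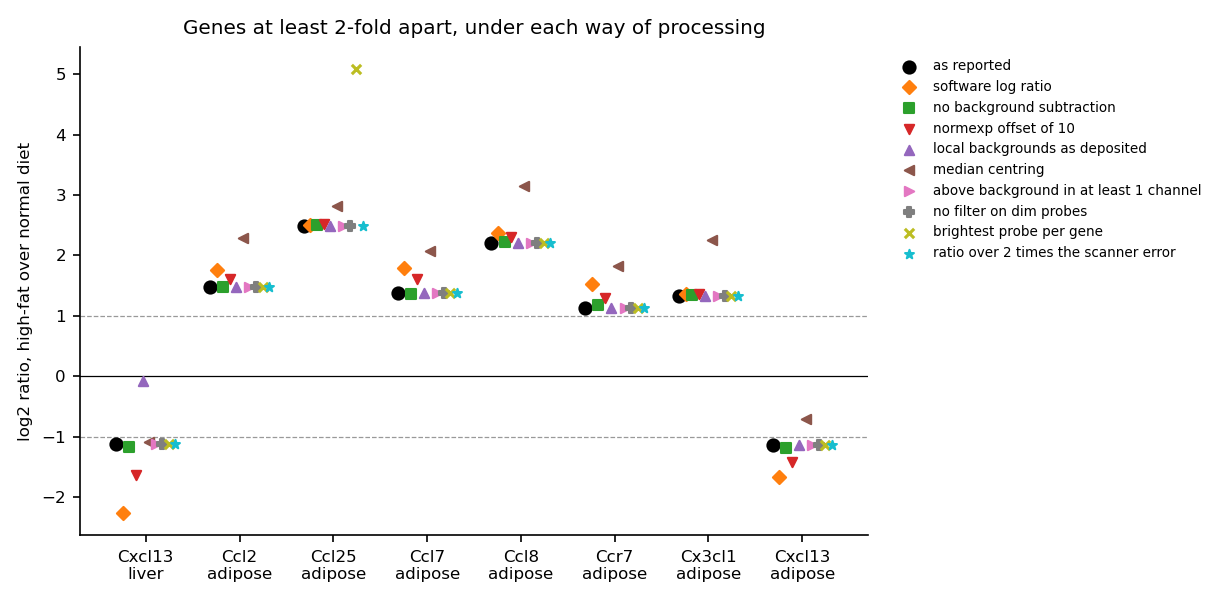
Log2 ratio of the 8 values at least 2-fold apart (7 genes, Cxcl13 in both tissues) as reported (black) and under 9 other ways of processing (coloured); dashed lines mark 2-fold. The 6 higher genes stay above 1 in every case, Cxcl13 in liver comes to -0.08 with local backgrounds as deposited, and Ccl25 reaches 5.08 with its brightest probe.

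Across the 9 other ways of processing, each of the 6 higher genes in adipose tissue kept a ratio of at least 2-fold. Ccl8 ranged from 2.20 to 3.15, Ccl2 from 1.47 to 2.30, Ccl7 from 1.35 to 2.08, Cx3cl1 from 1.32 to 2.26 and Ccr7 from 1.13 to 1.83, in each case with median centring the highest. These alternatives use the same 2 arrays and bear on the processing alone.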

How the data were processed

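Per the file headers, the deposited scanner files were made with Agilent Feature Extraction 11.5.1.1; version 8.5.1.1 stands in the submitters' processing notes. The authors deposited median spot and local background intensity per channel, without normalization, and a log10 ratio of red over green with its error, which the software had background-subtracted and dye-normalized. The files hold no gene names, so probes were named through transcript accessions in a RefSeq table (GRCm38.p6); the array annotation is of build mm9.

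Local backgrounds marked as outliers were set to the median of their array and channel (on the liver array 1602 in red and 665 in green, on the adipose array 1480 and 406). Background was corrected with normexp (offset 50) and each array normalized by loess in limma 3.58.1 (R 4.3.3); Aquantile set levels on 1 scale. Of the family's 73 spots none was an outlier or saturated. The local background was replaced for 2 of them on the liver array and 3 on the adipose array. Probes were measured when well above background in both channels; spots, then probes, were averaged. A bound sets the bright channel over the higher of the dim signal and the lowest level above background. Where the dim signal is the higher, the bound is the plain ratio and no lower limit. This holds for the bounds given for Ccr9, Ccr10 and Cxcr5. No replicate or dye swap exists, so there is no test, and a probe's dye effect cannot be told apart from diet. Background correction and loess were tested on simulated spots, while the averaging, the background filter, the bounds and Aquantile were not. In the simulation few spots were set to change, all of them bright and as many up as down. An array with many changed genes was not covered. Genes were named by role, by 2-fold ratio or bound, with their receptors or ligands; genes, lists and alternatives were chosen with earlier results of these data known. The values of 1 gene of the family are not reported here, though it stays in the counts and medians.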

Additional observations from a re-analysis of the deposited data

Results flagged for a closer look

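Ccl25 lay on opposite sides of 0 in the 2 tissues, at 2.49 in adipose tissue and -0.26 in liver, each beyond its scanner error (0.32 and 0.17). The difference between the tissues was not tested, since each ratio rests on 1 array. The adipose value is the mean of probes at 5.08 and -0.11, and the liver value that of probes at -0.43 and -0.09.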

How the results depend on the processing

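In all, 9 other ways of processing were run for the ratios and 2 for the tissue levels. With the software's log ratio, 1 gene was at least 2-fold higher in liver (Cx3cr1) and 12 in adipose tissue. With median centring, 1 was higher in liver (Cxcl1), and in adipose tissue 16 were higher and 0 lower, at a median of 0.87; the median of all genes was then 0.69, and 87.2% of all genes at least 2-fold apart were higher, against 45.1% as reported (in liver 94.1% against 45.9%). With local backgrounds as deposited, 0 genes were lower in liver. Over genes past 2 times the scanner error, which selects on the ratio, the medians were 0.41 over 7 genes and 0.89 over 15. The liver share also moved when 1 channel above background sufficed (59.5% higher) and without a filter (56.9%). No other count of family genes moved by over 1.5 times. The remaining medians moved by less than the scanner error, down to 0.01 in liver (deposited backgrounds) and 0.13 in adipose tissue (no filter). No ratio of a family gene past 2-fold changed sign. Over all genes of the liver array, 67 were higher and 79 lower as reported, 138 and 157 by the scanner software's ratio, 20 and 35 with deposited backgrounds, 445 and 28 with median centring, 116 and 79 with 1 channel above background, and 103 and 78 without a filter; in adipose tissue the counts of 605 and 735 became 4208 and 616 with median centring and 901 and 1230 by the scanner software's ratio. The cause of these shifts was not tested. No paired analysis was possible because each tissue has 1 array. Signal over background limits the 19 genes in liver and 16 in adipose tissue that were above it in neither channel.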
